A study of Mus musculus with 22 samples.

Results

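The genes described here are 10 genes of amino acid supply and of the stress pathway that controls it, out of 47311 mouse genes whose transcripts were summed in each library. They are Atf4, Trib3, Asns, Ass1, Pck2, Phgdh, Psat1, Psph, Shmt2 and Mthfd2. They were taken by role, and Pck2 and Ass1 were singled out because both had been seen to be strongly lower in Arid1a-deficient MEP in these libraries. The genes were thus selected on the difference between KO and WT in MEP, which is given for all 10 as a description with no test. The other populations came from other libraries, but CMP and GMP were sorted from the same mice as MEP, so their contrasts are not wholly separate from the one that was used.

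ATF4 is a transcription factor whose protein is made when the initiation factor eIF2 is phosphorylated, as happens when amino acids run short or haem is lacking. With its C/EBP partners it is known to switch on genes that import and make amino acids and that charge tRNA. PHGDH, PSAT1 and PSPH carry out, in that order, the conversion of a glycolytic intermediate to serine, and SHMT2 and MTHFD2 then pass carbon from serine to folate inside mitochondria. Growing blood cell precursors need serine, glycine and folate carbon for nucleotides and haem.

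RNA was sequenced in 22 libraries from the bone marrow of C57BL/6 mice. Arid1a encodes a subunit of the SWI/SNF (BAF) chromatin remodelling complex. KO mice were Arid1a f/f;Mx1-Cre+ and WT mice were Arid1a f/f;Mx1-Cre- littermates of the same sex, so both carried the floxed alleles. Both also received poly(I:C), an inducer of interferon, in 5 injections at 8 to 14 weeks of age, and cells were sorted 4 weeks later. Mx1-Cre is switched on by interferon and is not restricted to blood cells. Common myeloid precursors (CMP), granulocyte-monocyte precursors (GMP) and megakaryocyte-erythrocyte precursors (MEP) were sorted from 3 WT and 3 KO mice, and each mouse gave the 3 populations. The gates took Lin- Kit+ Sca1- marrow cells and split them by CD34 and the Fcγ receptor. Long-term haematopoietic stem cells (LT-HSC) came from 2 WT and 2 KO other mice and were made into libraries with another kit, so population and kit cannot be told apart where LT-HSC stand beside the precursors.

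Between 40804031 and 65930737 estimated counts fell on genes in each library. Arid1a itself had 119 and 111 CPM in WT and 50.9 and 53.6 CPM in KO LT-HSC, and every KO library also lay below every WT library in the precursors. The log2 fold changes of Arid1a were -0.22 ± 0.058 (SE) for CMP, -0.40 ± 0.11 for GMP and -0.14 ± 0.051 for MEP. The deletion removes an internal exon, so counts over the whole gene are a weak check of it. Some marker genes followed the labels in WT libraries. The neutrophil granule gene Elane was at 6237 to 7997 TPM in GMP and 5.54 to 10.8 TPM in MEP. The erythroid factor Klf1 was at 313 to 382 TPM in MEP and 3.59 to 3.97 TPM in GMP. The stem cell gene Procr was at 119 to 162 TPM in LT-HSC and 3.53 to 5.88 TPM in CMP. Erythroid markers did not follow the LT-HSC label. Klf1 was at 153 and 359 TPM in WT LT-HSC, which overlapped MEP. Summed erythroid markers were at 4942 to 6387 TPM in WT LT-HSC, 7021 to 7929.8 TPM in WT MEP and 1300.0 to 1447 TPM in WT CMP. Megakaryocyte markers did not follow the MEP label, with sums of 25.7 to 48.2 TPM in WT MEP and 768 to 1127 TPM in WT CMP. Neutrophil markers summed to 728 to 1566 TPM in WT LT-HSC. Levels are given in TPM (transcript abundance scaled for length and depth). Differences between genotypes are given on the scale of TMM-normalized counts relative to depth (CPM). The reason is that in TPM the median log2 ratio of KO to WT over all genes stood at 0.10 for CMP, -0.12 for GMP and -0.15 for LT-HSC. On the count scale the median over all genes tested was -0.0027 for CMP and -0.0056 for GMP, but still -0.16 for LT-HSC. Fold changes in LT-HSC are thus not centred on those of all genes. In bulk samples fewer cells of a type and less RNA per cell cannot be told apart.

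The promoters are shown because the genes are grouped as known or presumed targets of ATF4, and those of Pck2 and Ass1 are given in full because both genes were singled out. A core of the C/EBP-ATF response element, TGATGNAA, was searched on both strands in RefSeq promoter windows of GRCm38.p6, which run from 250 bases before to 50 bases after each gene's start. All 10 genes have a window, 11 windows in all, and those of Asns, Pck2 and Trib3 hold 1 match each. These are 3 of 10 genes, where 4.51% of all genes with a window hold a match. They are 3 of 11 windows, where 3.97% of all 32851 windows hold one. No match was found in the windows of Atf4, Ass1, Phgdh, Psat1, Psph, Shmt2 and Mthfd2, which says only that these letters are not in them. The match of Pck2 starts 103 bases before the gene's start, on the opposite strand. That of Asns starts 23 bases before its RefSeq start, and that of Trib3 15 bases into the transcript counted from its RefSeq start. In the GENCODE annotation Trib3 starts at 152344032 on the minus strand, and its match lies before that start. The stretches below are written 5′ to 3′ on the gene's strand, with the match in capitals. For Pck2 they are the 250 bases before its start (chr14:55540016-55540265, plus strand), and for Ass1 the 187 bases of its window that precede the annotated gene (chr2:31470020-31470206, plus strand), which hold no match. Asns (chr6:7693214-7693243) and Trib3 (chr2:152344028-152344057), both on the minus strand, are given as 30 bases around the match.
Pck2: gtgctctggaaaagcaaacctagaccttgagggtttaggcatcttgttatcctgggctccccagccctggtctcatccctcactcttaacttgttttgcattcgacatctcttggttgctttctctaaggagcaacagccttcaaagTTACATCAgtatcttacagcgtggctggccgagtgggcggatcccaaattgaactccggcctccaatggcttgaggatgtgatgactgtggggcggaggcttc
Ass1: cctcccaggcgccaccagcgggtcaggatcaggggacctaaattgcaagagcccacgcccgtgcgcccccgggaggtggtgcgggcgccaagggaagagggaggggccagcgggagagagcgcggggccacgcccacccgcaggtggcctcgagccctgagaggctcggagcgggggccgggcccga
Asns: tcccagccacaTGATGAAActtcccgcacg
Trib3: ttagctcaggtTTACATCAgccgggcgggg

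In the GENCODE annotation of GRCm38, Pck2 lies on chromosome 14, 55540266 to 55551242, Ass1 on chromosome 2, 31470207 to 31520672, Asns on chromosome 6, 7675169 to 7693254 and Phgdh on chromosome 3, 98313170 to 98339990. A single transcript carried nearly all counts of most of the genes: in the median library its share was 100% for Atf4, Shmt2 and Pck2 and 99.8% for Ass1, and it was lowest for Psat1 (90.6%) and Psph (90.6%). Psph is the most uncertain of them, because Cct6a, at 379.8 to 779.7 TPM, overlaps it on the other strand and counting is not stated to use strand. An antisense gene that overlaps Pck2, Gm10876, has no row in the files, so its reads cannot be set apart from those of Pck2.

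In WT mice the serine pathway enzyme Phgdh had the highest level of the 10 genes in LT-HSC, CMP and GMP. Its levels were 262 and 375 TPM in LT-HSC, 265, 299 and 268 TPM in CMP, 325, 284 and 280.4 TPM in GMP and 193, 163 and 164 TPM in MEP. The ranges of LT-HSC, GMP and CMP overlapped and MEP lay below them. In MEP, Asns had the highest mean, followed by Atf4 and Phgdh. Asparagine synthetase (Asns), which makes asparagine from aspartate, had the widest spread of means between the WT precursors. It had 177, 220.0 and 182 TPM in WT MEP, 26.1, 33.2 and 23.8 TPM in CMP and 18, 22.9 and 16.9 TPM in GMP, with no overlap between neighbours in that order. Its log2 fold change was 3.09 ± 0.16 (SE, n = 3) from CMP to MEP and 3.45 ± 0.16 from GMP to MEP (edgeR quasi-likelihood test, adjusted p = 8.51e-08 and 2.14e-08). The WT LT-HSC libraries had 60 and 153 TPM, between the levels of MEP and CMP.

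Atf4 mRNA was also highest in MEP, with 127, 129 and 112 TPM in WT CMP, 163, 138 and 139.6 TPM in GMP and 185, 187 and 161 TPM in MEP. The ranges of GMP and MEP overlapped in TPM, while on the count scale each step was past the threshold, at log2 fold changes of 0.42 ± 0.082 from CMP to GMP and 0.43 ± 0.082 from GMP to MEP (edgeR, adjusted p = 0.00243 and 0.000827). Mthfd2 and Shmt2 were also higher in MEP than in CMP, by 0.87 ± 0.15 and 0.53 ± 0.065 on the log2 scale (adjusted p = 0.000404 and 3.23e-05). Phgdh went the other way (-0.36 ± 0.086, adjusted p = 0.00346). For Psat1 the difference between MEP and CMP was -0.099 ± 0.072 and did not pass (adjusted p = 0.257), and its order in TPM was GMP, CMP, MEP and LT-HSC with no overlap between neighbours. In TPM, Psph ranged from 24.6 to 34.2 in all WT libraries, with overlap between neighbouring populations. On the count scale it was higher in MEP than in CMP, by a log2 fold change of 0.46 ± 0.075 (adjusted p = 0.000295).

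Of the 10 genes, 3 were lower and 4 higher in WT GMP than in CMP at an FDR of 0.1, beside 21.9% and 19% of all genes tested. Pck2, which encodes the mitochondrial enzyme that turns oxaloacetate into phosphoenolpyruvate, was one of the lower genes (-0.56 ± 0.048 on the log2 scale, adjusted p = 9.54e-06). Its levels were 70.3, 64.8 and 66.7 TPM in WT CMP, 42.1, 40.5 and 39.9 TPM in GMP, 85.1, 83.8 and 82.3 TPM in MEP and 75.2 and 79.5 TPM in LT-HSC, and the ranges of these populations did not overlap. Without mouse 309 the calls on Asns, Trib3, Phgdh, Psat1 and Psph between GMP and CMP were lost (adjusted p = 0.215, 0.119, 0.218, 0.105 and 0.204). Without mouse 300 the same held for Asns, Trib3, Phgdh and Psph (adjusted p = 0.233, 0.154, 0.252 and 0.157), and without mouse 305 for Trib3 (adjusted p = 0.201), while Shmt2 and Mthfd2 then passed (adjusted p = 0.012 and 0.0174). Among the 8 genes other than Pck2 and Ass1, 1 was lower and 5 were higher in MEP than in CMP, where 36.9% and 33.5% of all genes were. Against GMP, 2 were lower and 6 higher in MEP, where 35.4% and 35% of all genes were. Of these, the rise of Psph was lost without mouse 300, 305 or 309 (adjusted p = 0.12, 0.473 and 0.265) and that of Trib3 without mouse 300 or 305 (adjusted p = 0.303 and 0.242). The libraries that chose Pck2 and Ass1 enter the contrasts with MEP, so these are given for both genes in TPM alone.

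Argininosuccinate synthase (Ass1) joins citrulline to aspartate on the way to arginine. In WT mice it was highest in CMP, with 131, 187 and 144 TPM, followed by GMP with 117, 131 and 115 TPM and MEP with 108, 91.6 and 97.3 TPM. LT-HSC had only 9.71 and 19.7 TPM. From CMP to GMP its log2 fold change of -0.20 ± 0.12 did not pass (edgeR, adjusted p = 0.266). Trib3, a pseudokinase gene known as a target of ATF4, was low outside LT-HSC, with 24.8 and 28.4 TPM in WT LT-HSC and at most 0.593 TPM in any precursor library, where 2 to 26 estimated counts fell on it.

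**Figure D1:**
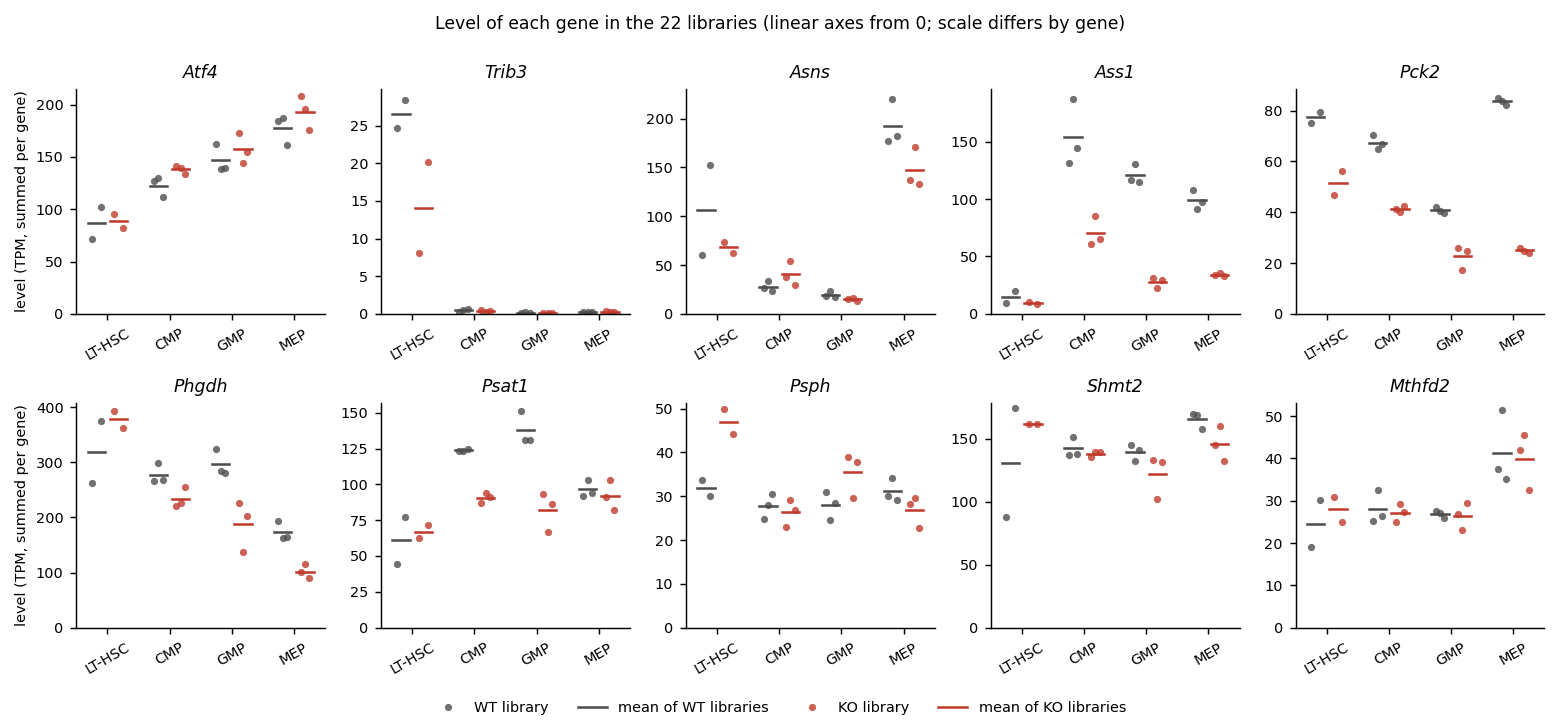
Level of each of the 10 genes (TPM summed over its transcripts, linear axes from 0 that differ by gene) in LT-HSC, CMP, GMP and MEP. Points are libraries of single mice and bars are means, grey for WT and red for KO. Pck2 and Ass1 in KO lie below WT in each precursor population, Asns is highest in MEP, and Trib3 stays under 1 TPM outside LT-HSC.

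Loss of Arid1a went with lower Pck2, Ass1, Phgdh and Psat1 in both CMP and GMP. In CMP 4 of the 10 genes were lower and 0 higher at an FDR of 0.1 with edgeR, where 12.8% of the 17214 genes tested were lower and 10.6% higher. At an unadjusted p under 0.05, 5 genes were lower and 0 higher, and DESeq2 gave 4 and 0. In GMP 9 genes passed the filter for low counts, all but Trib3. Of these, 4 were lower and 2 higher, where 16.3% of all genes were lower and 17.5% higher. The median log2 fold change of the genes was -0.18 in CMP and -0.25 in GMP, and that of all genes tested was -0.0027 and -0.0056. The counts of lower genes and these medians include Pck2 and Ass1, singled out as lower in KO MEP of the same mice. Counts and medians are therefore not free of that choice, and nothing about the genes as a group is read from them. In MEP, where the genes were chosen, every KO library lay below every WT library for 6 of the 10 genes and above for 0. Over all genes in MEP these shares were 20% and 18.7%, and nothing is read from the count.

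**Figure D2:**
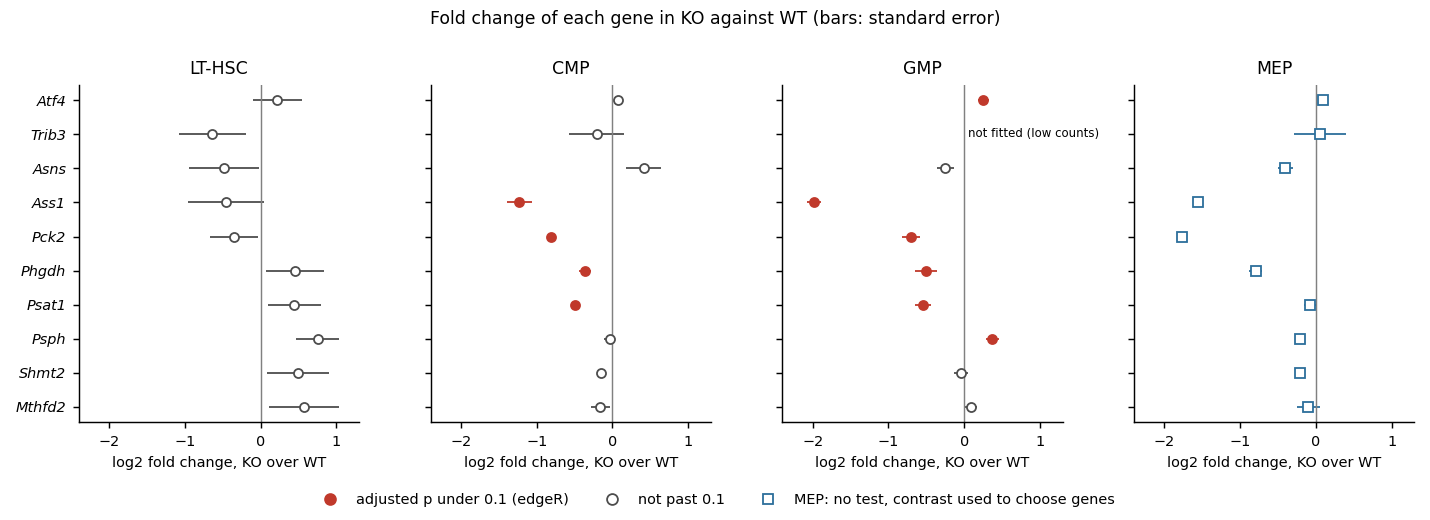
Log2 fold change of KO over WT (x axis) for each of the 10 genes in LT-HSC, CMP, GMP and MEP, with its standard error. Filled red points passed an adjusted p of 0.1 in edgeR and open circles did not, while the blue squares of MEP carry no test. Pck2, Ass1, Phgdh and Psat1 are filled and left of 0 in CMP and GMP, Atf4 and Psph are filled and right of 0 in GMP only, and no LT-HSC point is filled.

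Pck2 fell in KO CMP and GMP. WT CMP had 163, 153 and 159.7 CPM and KO CMP 89.2, 88.6 and 94.1 CPM. WT GMP had 95.8, 91.2 and 94.3 CPM and KO GMP 63.1, 45.6 and 63.6 CPM. The replicates were tight and the groups lay far apart in CMP, and in GMP 1 KO mouse was lower than the other two. The means fell from 159 ± 5.13 to 90.6 ± 3.06 CPM (SD, n = 3) in CMP, a log2 fold change of -0.81 ± 0.052 (edgeR, adjusted p = 4.39e-05). In GMP the log2 fold change was -0.71 ± 0.12 (adjusted p = 0.002). In MEP the values were 213, 212 and 211 CPM in WT and 63.1, 60.4 and 62.6 CPM in KO, a log2 fold change of -1.77 ± 0.044, given as a description. In TPM, KO MEP had 25.9, 24.9 and 24.1 and KO CMP 41.2, 40 and 42.4, and since Pck2 was chosen by its KO MEP values nothing is read from that order.

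Ass1 also fell in both populations. It had 141, 206 and 160.0 CPM in WT CMP and 60.3, 88.5 and 67.4 CPM in KO CMP. In GMP there were 124, 137 and 124 CPM in WT and 34.4, 28.3 and 34.9 CPM in KO. No KO library reached the lowest WT library in either population. The mean dropped by 57.4% in CMP and 74.6% in GMP by the fitted fold changes, which were -1.23 ± 0.17 and -1.98 ± 0.091 on the log2 scale (edgeR, adjusted p = 0.00135 and 3.29e-06). MEP had 126, 108 and 117 CPM in WT and 38.9, 40.1 and 39.8 CPM in KO, and the log2 fold change there, -1.56 ± 0.064, is again a description.

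Phgdh and Psat1, the first enzymes of serine synthesis, fell in KO CMP and GMP. Phgdh, the entry enzyme, had 325, 374 and 341 CPM in WT CMP against 253, 258 and 300.2 CPM in KO. In GMP it had 392.4, 337 and 351 CPM in WT against 292, 193 and 277 CPM in KO. The groups did not overlap in either, and the log2 fold change was -0.36 ± 0.081 in CMP and -0.50 ± 0.14 in GMP (edgeR, adjusted p = 0.0165 and 0.0264). Psat1, which acts after it, had 206, 206 and 195 CPM in WT CMP and 136, 151 and 144 CPM in KO CMP, and 239, 198 and 219 CPM in WT GMP and 166, 125 and 157 CPM in KO GMP. Its log2 fold changes were -0.49 ± 0.058 and -0.55 ± 0.11 (adjusted p = 0.000633 and 0.0051). In MEP the values of Phgdh were 257, 219 and 223 CPM in WT and 131, 148 and 124 CPM in KO, with no overlap. Those of Psat1 in MEP were 163, 173 and 154 CPM in WT and 152, 173 and 141 CPM in KO, which overlapped.

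Psph, the last enzyme to serine, rose in GMP, where Phgdh and Psat1 fell. In GMP it had 27.7, 24.5 and 26 CPM in WT and 35.7, 30.2 and 35.3 CPM in KO, a log2 fold change of 0.37 ± 0.083 (edgeR, adjusted p = 0.00953). In TPM the same libraries had 30.9, 24.6 and 28.4 in WT and 38.9, 29.6 and 37.8 in KO, which overlapped. In CMP it had 24.9, 25.8 and 22.9 CPM in WT and 23, 24.5 and 24.2 CPM in KO (log2 fold change -0.038 ± 0.077, adjusted p = 0.819). MEP had 28.1, 29.2 and 30.2 CPM in WT and 25.5, 26.3 and 24 CPM in KO, so that each KO library lay below each WT library there.

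The mitochondrial folate enzymes did not pass between genotypes in CMP or GMP in the test without a block. For Shmt2 the log2 fold change was -0.15 ± 0.06 in CMP, against -0.039 ± 0.089 in GMP (edgeR, adjusted p = 0.138 and 0.801). Its KO values in CMP, 193, 204 and 204 CPM, were all below the WT values of 210.2, 236 and 219 CPM. Mthfd2 had -0.16 ± 0.12 in CMP and 0.094 ± 0.081 in GMP (adjusted p = 0.459 and 0.449), with overlapping groups. Without WT mouse 300, Shmt2 passed in CMP (-0.19, adjusted p = 0.0967), as it did with the replicate block of neighbouring columns (-0.15, adjusted p = 0.0408). In MEP their log2 fold changes were -0.21 ± 0.057 and -0.099 ± 0.15.

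Atf4 mRNA had a mean above that of WT in each KO population. In GMP it rose slightly, from 177, 149 and 158 CPM in WT to 202, 183 and 191 CPM in KO, a log2 fold change of 0.25 ± 0.075 (edgeR, adjusted p = 0.0357). The call was lost without WT mouse 305 or 309 or KO mouse 301 (adjusted p = 0.109, 0.137 and 0.14), and in TPM the groups overlapped. In CMP the change was 0.076 ± 0.06 (adjusted p = 0.478) and in MEP 0.095 ± 0.066. Trib3 had 0.326, 0.466 and 0.402 CPM in WT CMP and 0.475, 0.314 and 0.251 CPM in KO CMP, too few counts to show a difference (log2 fold change -0.21 ± 0.36, adjusted p = 0.785). Atf4 protein was not measured here.

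Asns did not pass between genotypes in CMP or GMP in the test without a block. KO CMP had 43.1, 66.9 and 33.6 CPM against 32.6, 43.9 and 31.3 CPM in WT, with overlap (log2 fold change 0.41 ± 0.23, edgeR adjusted p = 0.291). In GMP the KO values, 20.4, 21.5 and 19.5 CPM, were all below the WT values of 22.5, 28.8 and 21.6 CPM, but the change of -0.25 ± 0.11 did not pass (adjusted p = 0.138). Without KO mouse 308 the rise in CMP passed (0.61, adjusted p = 0.09), and without WT mouse 309 the fall in GMP did (-0.34, adjusted p = 0.0898). With a replicate block of the WT and KO mice that neighbour each other in the study's expression tables, a pairing the study does not describe, both passed, at 0.38 in CMP and -0.24 in GMP (adjusted p = 0.0164 and 0.0418). MEP, where Asns is most abundant, had 244.9, 298 and 253 CPM in WT and 184, 227 and 189.6 CPM in KO, a log2 fold change of -0.41 ± 0.099.

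Some markers of other cell types differed between genotypes in the same libraries, and their part in these results was not tested. For comparison, CMP had 12.8% of all genes tested called lower and 10.6% called higher at the same FDR of 0.1. The shares for GMP were 16.3% lower and 17.5% higher. MEP had 15.4% lower and 14% higher. The marker lists are short, so a count of 1 or 2 calls is a description, and no change of that cell type is read from it. In CMP, 9 of 10 erythroid markers were higher in KO (summed level 1300.0 to 1447 TPM in WT and 1983 to 2289.5 TPM in KO), 4 of 7 neutrophil markers were lower and 1 higher (3972 to 4820.0 against 1752 to 2705 TPM) and 5 of 6 basophil and mast cell markers were lower (357 to 551 against 248 to 258 TPM). In GMP, 6 of 7 neutrophil markers were higher and 1 lower (30086 to 35315 against 39882 to 45380.0 TPM), while all 6 basophil and mast cell markers (845 to 1329 against 147 to 201 TPM) and all 4 eosinophil markers (3876 to 8747 against 1074 to 2106 TPM) were lower. In MEP, 4 of 5 basophil and mast cell markers tested were lower (63.2 to 79.5 against 16.4 to 22 TPM), with Mcpt8, Ms4a2 and Fcer1a under 1 TPM in every library. Erythroid markers in MEP were higher for 5 of 10 and lower for 1, although their sum was 7021 to 7929.8 TPM in WT and 5587 to 5886 TPM in KO. Megakaryocyte markers were lower for 4 of 6 and higher for 1 in CMP (768 to 1127 against 595 to 621 TPM), and higher for 3 of 6 in MEP (25.7 to 48.2 against 72.3 to 97.5 TPM). In GMP, 2 of 6 megakaryocyte markers were lower and 1 higher (107 to 226 against 72.3 to 92.4 TPM), as were 3 and 1 of 10 erythroid markers (146 to 212 against 176 to 189.7 TPM). In CMP 1 of 4 eosinophil markers was lower (45.5 to 109 against 37.1 to 91.9 TPM), and in MEP none of the 4 passed. No marker of these lists was at 0 in every library of a population. In MEP the neutrophil markers summed to 28.1 to 66.6 TPM in WT and 30.6 to 41.1 TPM in KO, 1 of 7 being lower. Of 7 monocyte and macrophage markers, 3 were lower and 1 higher in CMP and 4 lower and 1 higher in GMP, and 2 of the 6 tested were higher in MEP, where Csf1r, Ly86, Adgre1 and C1qa stayed under 1 TPM. Among 7 stem cell markers 2 were lower and 2 higher in CMP, 5 lower and 1 higher in GMP, and 2 of 6 higher in MEP. Of the lymphoid markers tested, 1 of 4 was higher in CMP, 1 of 4 lower in GMP and 1 of 3 lower in MEP.

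In LT-HSC none of the 10 genes passed an FDR of 0.1 with edgeR, where 0.0792% of 22733 genes did. At an unadjusted p under 0.05, 1 of the genes, Psph, was higher, and DESeq2 called 0. The median log2 fold change of all genes tested in LT-HSC was -0.16. The 2 WT libraries stood far apart: Asns had 63.1 and 225 CPM and Shmt2 125 and 307 CPM in them. KO LT-HSC had 106 and 99.6 CPM of Asns and 289 and 318 CPM of Shmt2. Trib3 had 29.3 and 42.9 CPM in WT and 12.2 and 34.2 CPM in KO, which overlapped (log2 fold change -0.64 ± 0.45, edgeR, adjusted p = 0.876). In TPM both KO libraries (8.04 and 20.2) were below both WT libraries (24.8 and 28.4). Pck2 had 165 and 215 CPM in WT and 128 and 169 CPM in KO (log2 fold change -0.35 ± 0.32, adjusted p = 0.876), which overlapped, although in TPM both KO libraries (46.7 and 56) were below both WT libraries. In CPM, Phgdh, Psat1 and Psph were higher in both KO libraries than in both WT libraries, where 36.3% of all genes showed no overlap in either direction. In TPM, Phgdh overlapped (262 and 375 in WT, 393 and 363 in KO), as did Psat1 (44.6 and 77 in WT, 62.3 and 71.8 in KO). Psph did not overlap in TPM (33.6 and 30.1 in WT, 49.9 and 44.1 in KO). Psph had 28.8 and 34.2 CPM in WT and 54.1 and 51.7 CPM in KO (log2 fold change 0.75 ± 0.28, adjusted p = 0.876). Without the WT library that had the higher Asns, Phgdh, Psat1, Psph, Shmt2 and Mthfd2 passed as higher in KO, at log2 fold changes of 0.89, 1.02, 0.85, 1.24 and 1.56, and without the other WT library Asns passed as lower, at -1.11. Each of these fits leaves 1 WT library, which is assumed to vary like the KO pair. Over the 4 libraries left out in turn, the lowest log2 fold change was 0.12 for Phgdh, 0.035 for Psat1, 0.65 for Psph and 0.0032 for Shmt2, none of them past the threshold, and -0.0067 for Mthfd2. Eosinophil markers summed to 39.4 to 176 TPM in WT and 217 to 3365 TPM in KO LT-HSC, and none of the 4 passed. Of the other marker lists in LT-HSC, 1 of 7 neutrophil markers was lower and none of the rest passed.

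Whether the genotype acted alike in CMP and GMP was tested as an interaction, in which 19% of 18034 genes passed in either direction. It passed for 2 of the 10 genes. Ass1 fell more in GMP than in CMP, with a difference of -0.75 ± 0.21 between the log2 fold changes (edgeR, adjusted p = 0.0298), and Psph differed between the populations by 0.41 ± 0.12 (adjusted p = 0.0311). The call on Ass1 was lost without mouse 304 or 309 (adjusted p = 0.128 and 0.113) and that on Psph without mouse 301, 305 or 308 (adjusted p = 0.184, 0.151 and 0.113). For Asns the difference of -0.66 ± 0.29 did not pass (adjusted p = 0.174), but it did with the mouse as a replicate block, at -0.61 (adjusted p = 0.0399), and without mouse 308, at -0.82 (adjusted p = 0.0936). For Pck2 it was 0.098 ± 0.14 (adjusted p = 0.734), for Phgdh -0.15 ± 0.18 (adjusted p = 0.69) and for Psat1 -0.055 ± 0.14 (adjusted p = 0.86).

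Other genes of these pathways were taken from lists that hold none of the 10 genes, and their counts are given for MEP too. These lists were also chosen with earlier results of these data known. Their shares and medians are therefore descriptions, not free of that choice. CPM levels of these genes are means ± SD of 3 mice, and log2 fold changes are given ± SE. In MEP 15.4% of the 15777 genes tested were lower in KO and 14% higher. Genes of the integrated stress response, the pathway that raises ATF4, gave 5 higher and 4 lower of 24 in CMP (20.8% and 16.7%), 10 higher and 2 lower of 25 in GMP (40% and 8%) and 8 higher and 3 lower of 24 in MEP (33.3% and 12.5%). The shares over all genes, higher and lower, were 10.6% and 12.8% in CMP and 17.5% and 16.3% in GMP. The stress response genes had median log2 fold changes of 0.15, 0.12 and 0.039, where those of all genes were -0.0027, -0.0056 and -0.002. Vldlr, a lipoprotein receptor gene known to respond to ATF4, rose from 17.1 ± 5.35 to 73.3 ± 8.78 CPM in CMP and from 1.97 ± 0.371 to 13.8 ± 1.82 CPM in GMP. Its log2 fold changes were 2.10 ± 0.21 and 2.81 ± 0.17 (edgeR, adjusted p = 0.000322 and 1.06e-05). In MEP it was also higher (1.10 ± 0.37, adjusted p = 0.069), a call lost without KO mouse 304 or 308 or WT mouse 305 or 309 (adjusted p = 0.112 to 0.208). Chac1, which encodes an enzyme that breaks down glutathione, rose in GMP by 2.19 ± 0.30, from 0.677 ± 0.194 to 3.09 ± 0.888 CPM (adjusted p = 0.000736), and was too low to test in CMP and MEP. Among the genes of this list that fell, Stc2 was called lower in CMP, GMP and MEP. Herpud1 fell in CMP (-0.36 ± 0.092, edgeR, adjusted p = 0.0267) and Sesn2 in MEP (-0.38 ± 0.10, adjusted p = 0.0301).

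Of the kinases that phosphorylate eIF2, Eif2ak2, which senses double-stranded RNA, rose by 0.52 ± 0.056 in CMP, 0.48 ± 0.078 in GMP and 0.52 ± 0.10 in MEP (edgeR, adjusted p = 0.000413, 0.00172 and 0.00938). Eif2ak1, which senses haem, rose in CMP (0.29 ± 0.065, adjusted p = 0.0158), GMP (0.23 ± 0.07, adjusted p = 0.0427) and MEP (0.50 ± 0.071, adjusted p = 0.00186), and the call in GMP was lost without KO mouse 301 or WT mouse 309 (adjusted p = 0.157 and 0.193). Eif2ak4, which senses uncharged tRNA, fell in CMP (-0.21 ± 0.065, adjusted p = 0.0558) and MEP (-0.28 ± 0.052, adjusted p = 0.00743), and its value in GMP did not pass (0.052 ± 0.065, adjusted p = 0.622). Its call in CMP was lost without any 1 mouse except WT mouse 305 (adjusted p = 0.109 to 0.166). Among the C/EBP factors that pair with ATF4, Cebpb fell from 7.77 ± 3.06 to 3.19 ± 0.331 CPM in CMP (log2 fold change -1.28 ± 0.26, adjusted p = 0.0105). It was higher in GMP (0.28 ± 0.11, adjusted p = 0.0969), a call lost with size factors, the length offset, 1 fit of all precursors and without WT mouse 300 or 309 or KO mouse 304 or 308 (adjusted p = 0.101 to 0.373), and its value in MEP did not pass (-0.26 ± 0.24, adjusted p = 0.506). Cebpg fell from 62.8 ± 2.17 to 43 ± 1.13 CPM in GMP (-0.55 ± 0.061, adjusted p = 0.000232), with values that did not pass in CMP (-0.027 ± 0.048, adjusted p = 0.792) and MEP (-0.017 ± 0.072, adjusted p = 0.905).

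The cytosolic aminoacyl-tRNA synthetases, which attach amino acids to tRNA and include known ATF4 targets, form a list of 20 that were all tested. Of these, 2 were higher in CMP (10%), 4 in GMP (20%) and 1 in MEP (5%), where 10.6%, 17.5% and 14% of all genes were, and 0 were lower in any. At an unadjusted p under 0.05, 3 were higher in CMP, 8 in GMP and 1 in MEP, and 0 were lower in any. DESeq2 called 2, 3 and 1 higher and 0 lower. The medians of the list were 0.10, 0.095 and 0.074 on the log2 scale. Dars, the synthetase for aspartate, was among those that passed in GMP (0.30 ± 0.066, adjusted p = 0.0084), and did not pass in CMP (0.11 ± 0.055, adjusted p = 0.219, and 0.0797 without WT mouse 305 and 0.0882 with the replicate block) or MEP (0.10 ± 0.047, adjusted p = 0.179). The TGATGNAA core was in the promoter windows of 5 of the 12 synthetase genes that have one (Aars, Gars, Iars, Tars and Yars). It was also in those of 6 of 25 stress response genes (Atf3, Chac1, Fgf21, Herpud1, Nupr1 and Vldlr). Of all genes with a window, 4.51% hold it.

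**Figure D3:**
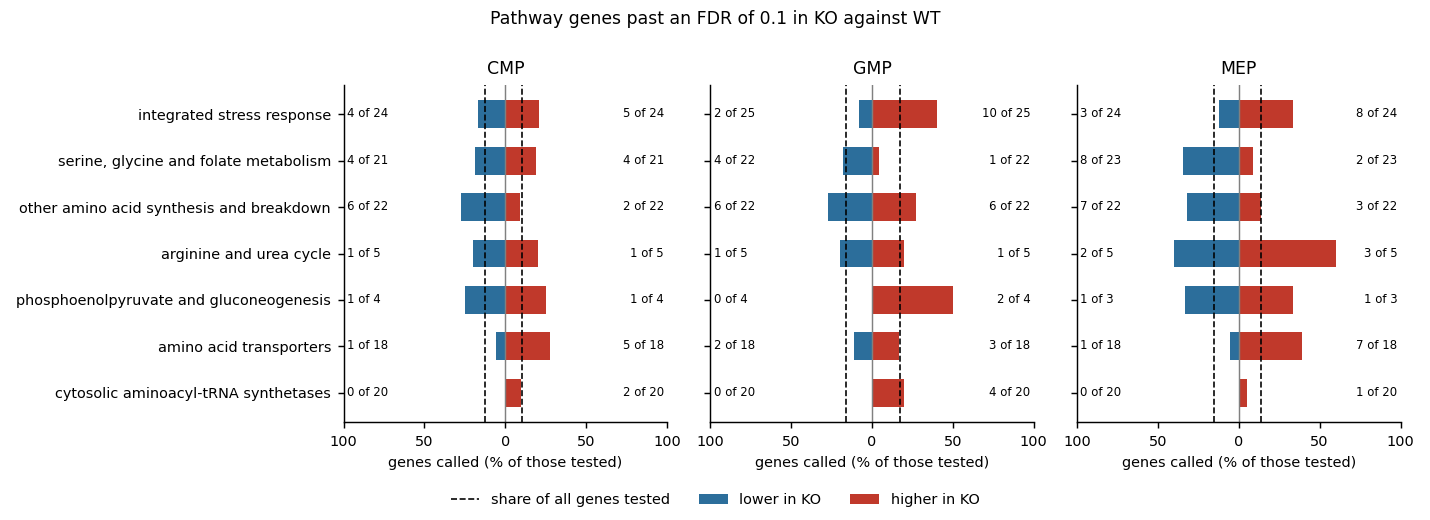
Share of the tested genes of each pathway list (x axis, percent) called lower (blue, to the left) or higher (red, to the right) in KO at an FDR of 0.1 in CMP, GMP and MEP, with the counts printed at the edges. Dashed lines give the same shares over all genes tested, and no list holds any of the 10 genes. Stress response genes and amino acid transporters lie to the right of the line in MEP, and serine, glycine and folate genes to the left.

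Among other genes of serine, glycine and folate metabolism, 4 of 21 were lower and 4 higher in CMP (19% each, beside 12.8% and 10.6% of all genes). In GMP 4 of 22 were lower and 1 higher (18.2% and 4.55%, beside 16.3% and 17.5%), and in MEP 8 of 23 lower and 2 higher (34.8% and 8.7%, beside 15.4% and 14%). Their medians were -0.066, -0.071 and -0.037 on the log2 scale. Sdsl, a gene of the serine dehydratase family, was lower in all 3 populations. It fell from 59.3 ± 3.99 to 36.4 ± 4.65 CPM in CMP, from 16.4 ± 2.51 to 2.57 ± 0.269 CPM in GMP and from 108 ± 13.7 to 69.2 ± 6.44 CPM in MEP. The log2 fold changes were -0.71 ± 0.098, -2.68 ± 0.15 and -0.65 ± 0.10 (edgeR, adjusted p = 0.00155, 6.61e-06 and 0.00321). In MEP, Fpgs, which adds glutamate to folate, fell by 0.60 ± 0.061 (adjusted p = 0.000377), while Shmt1, the cytosolic counterpart of Shmt2, rose by 0.57 ± 0.078 (adjusted p = 0.00161). In CMP, Fpgs was higher (0.19 ± 0.068, adjusted p = 0.0944), a call lost with no filter, the length offset and without WT mouse 300 or 309 or KO mouse 301 or 304 (adjusted p = 0.103 to 0.298), and in GMP its value of -0.036 ± 0.082 did not pass (adjusted p = 0.801). Shmt1 did not pass in CMP (-0.17 ± 0.073, adjusted p = 0.148, and 0.0627 without KO mouse 308 and 0.0789 with the replicate block) or GMP (-0.073 ± 0.088, adjusted p = 0.608). Mthfd1l, a mitochondrial folate enzyme, rose modestly in each population, by 0.25 ± 0.049 in CMP, 0.19 ± 0.066 in GMP and 0.29 ± 0.044 in MEP (adjusted p = 0.00814, 0.0605 and 0.00271). In GMP that call was lost with the length offset (adjusted p = 0.113) and without any 1 of 5 of the 6 mice, all but KO mouse 304 (adjusted p = 0.105 to 0.232).

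Next to Ass1 in the arginine path 5 other genes were tested in each precursor population. In CMP and in GMP 1 was lower and 1 higher (20% each). Of all genes, 12.8% were lower and 10.6% higher in CMP, and 16.3% and 17.5% in GMP. In MEP 2 were lower and 3 higher (40% and 60%, beside 15.4% and 14%). Asl, which acts on the product of Ass1, fell in CMP and MEP, at -0.24 ± 0.071 and -0.43 ± 0.076 on the log2 scale (edgeR, adjusted p = 0.0488 and 0.00545), and in GMP its change of 0.16 ± 0.069 did not pass (adjusted p = 0.131). The call in CMP was lost without WT mouse 300 or 309 or KO mouse 301 or 304 (adjusted p = 0.146, 0.108, 0.121 and 0.14), with no filter (0.102) and with the length offset (0.156). The value in GMP passed in 1 fit of all precursors (0.17, adjusted p = 0.0766) and with the replicate block of neighbouring columns (0.16, adjusted p = 0.042). Gatm, which uses arginine and glycine in the first step to creatine, rose in all 3. Its values went from 90.5 ± 11.7 to 158 ± 22.4 CPM in CMP, from 199 ± 15.3 to 515 ± 79.9 CPM in GMP and from 242 ± 12.1 to 395 ± 29.3 CPM in MEP. The log2 fold changes were 0.81 ± 0.12, 1.38 ± 0.11 and 0.70 ± 0.065 (adjusted p = 0.00201, 3.83e-05 and 0.000227). Nags, whose product activates the urea cycle, fell in MEP from 11.7 ± 2.63 to 5.37 ± 0.288 CPM (-1.13 ± 0.17, adjusted p = 0.00245), and in CMP its value of 0.96 ± 0.41 did not pass (adjusted p = 0.156, but 0.0198 without WT mouse 305, 0.0853 in 1 fit of all precursors and 0.0351 with the replicate block).

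Of the genes around phosphoenolpyruvate, beside Pck2, 4 were tested in CMP, of which 1 was lower and 1 higher (25% each, beside 12.8% and 10.6% of all genes). In GMP 4 were tested, of which 2 were higher (50%, beside 17.5%). In MEP 3 were tested, of which 1 was lower and 1 higher (33.3% each, beside 15.4% and 14%). Pcx, pyruvate carboxylase, makes the oxaloacetate that Pck2 uses. It was higher in KO in CMP, from 9.32 ± 0.519 to 18.5 ± 5.06 CPM, and in MEP, from 22.2 ± 5.07 to 67.1 ± 5.27 CPM, at log2 fold changes of 0.99 ± 0.18 and 1.60 ± 0.15 (edgeR, adjusted p = 0.00656 and 0.000223). In GMP its change was 0.038 ± 0.098 (adjusted p = 0.825). Fbp1, fructose bisphosphatase, fell in CMP (-1.42 ± 0.23) and rose in GMP (0.71 ± 0.12, adjusted p = 0.00338 and 0.00249).

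Other genes of amino acid synthesis and breakdown gave 6 of 22 lower and 2 higher in CMP (27.3% and 9.09%, beside 12.8% and 10.6% of all genes). In GMP 6 were lower and 6 higher (27.3% each, beside 16.3% and 17.5%), and in MEP 7 lower and 3 higher (31.8% and 13.6%, beside 15.4% and 14%). Prodh, which starts the breakdown of proline, was lower in each, with a log2 fold change of -0.84 ± 0.06 in CMP, a value of -0.51 ± 0.067 in GMP and a value of -1.41 ± 0.14 in MEP (edgeR, adjusted p = 6.24e-05, 0.000547 and 0.000315). Oat, which interconverts ornithine and the precursor of proline, was higher in CMP (0.49 ± 0.068) and MEP (0.49 ± 0.044, adjusted p = 0.00165 and 0.000202), and did not pass in GMP (-0.052 ± 0.064, adjusted p = 0.612). Glutamine synthetase, Glul, fell in GMP from 107 ± 5.41 to 32.4 ± 5.38 CPM (-1.72 ± 0.12, adjusted p = 1.72e-05), and in CMP and MEP its changes of -0.11 ± 0.064 and 0.098 ± 0.064 did not pass (adjusted p = 0.287 and 0.335). A further fall was that of Bcat1, the cytosolic branched-chain aminotransferase, which went from 2.6 ± 0.705 to 0.147 ± 0.0849 CPM in GMP (-4.11 ± 0.41, adjusted p = 0.000126), and it fell in CMP too (-2.61 ± 0.31, adjusted p = 0.000699). Cth, which makes cysteine from cystathionine, rose in GMP from 0.316 ± 0.0495 to 1.39 ± 0.302 CPM (2.12 ± 0.30, adjusted p = 0.000778), and it rose in CMP (1.51 ± 0.38, adjusted p = 0.0263) and MEP (0.86 ± 0.19, adjusted p = 0.0153).

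Among 18 amino acid transporters, 1 was lower and 5 higher in CMP (5.56% and 27.8%, beside 12.8% and 10.6% of all genes). In GMP 2 were lower and 3 higher (11.1% and 16.7%, beside 16.3% and 17.5%), and in MEP 1 was lower and 7 higher (5.56% and 38.9%, beside 15.4% and 14%). The list had medians of 0.11, -0.059 and 0.33 on the log2 scale. In MEP, Slc7a6, a transporter of basic and neutral amino acids, rose from 3.58 ± 0.0502 to 22.3 ± 2.99 CPM and Slc6a9, a glycine transporter, from 2.73 ± 0.38 to 15.3 ± 4.75 CPM. Their log2 fold changes were 2.64 ± 0.12 and 2.48 ± 0.23 (edgeR, adjusted p = 1.34e-05 and 0.00024). Slc7a7, of the same family as Slc7a6, fell in GMP from 4.09 ± 0.637 to 1.02 ± 0.1 CPM (-2.01 ± 0.20, adjusted p = 0.000128), and did not pass in CMP (0.17 ± 0.20, adjusted p = 0.659) or MEP (-0.14 ± 0.11, adjusted p = 0.411). Slc7a6 did not pass in CMP (-0.12 ± 0.079, adjusted p = 0.365) or GMP (-0.076 ± 0.079, adjusted p = 0.541). Slc6a9 was higher in CMP (1.11 ± 0.40, adjusted p = 0.0995), a call kept without KO mouse 308 but lost without any other 1 mouse and with the length offset (adjusted p = 0.123 to 0.310), and in GMP its value of -1.38 ± 0.58 did not pass (adjusted p = 0.116, but 0.0215 without KO mouse 304 and 0.0747 without WT mouse 305). In LT-HSC 0 of the 126 genes of all lists passed with edgeR, 10 had an unadjusted p under 0.05, and DESeq2 called 0.

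**Figure D4:**
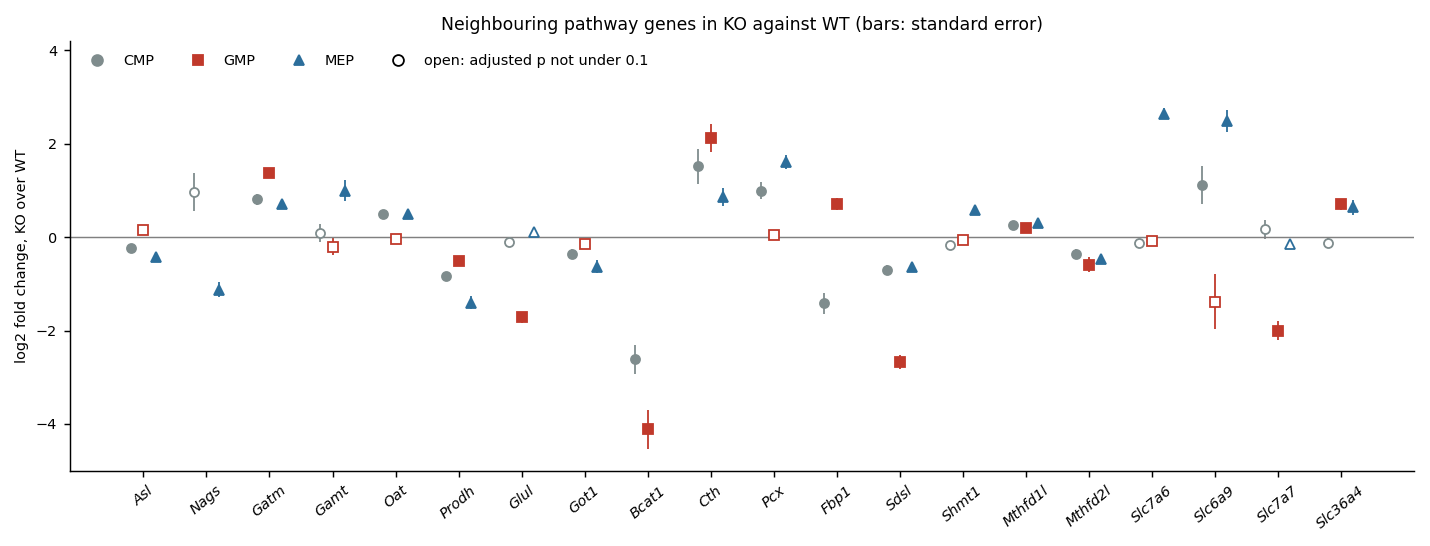
Log2 fold change of KO over WT (y axis, with its standard error) of named genes from the lists of arginine, other amino acids, phosphoenolpyruvate, serine and folate, and transport, in CMP (grey circles), GMP (red squares) and MEP (blue triangles). Filled symbols passed an adjusted p of 0.1 in edgeR and open ones did not, and a missing symbol was too low to test. Gatm and Cth lie above 0 and Prodh and Sdsl below 0 in the 3 populations, and the MEP value of Slc7a6 is 2.64.

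Across the 18 precursor libraries the 10 genes fell into no single pattern. Pearson's r between log2(TPM + 1) values was 0.84 for Ass1 and Pck2, 0.78 for Ass1 and Psat1 and 0.86 for Mthfd2 and Asns. It was -0.70 for Phgdh and Atf4. These libraries share mice, genotypes and populations, so the values describe them and carry no test. They include the MEP libraries on which Pck2 and Ass1 were selected, which helps to set the value for that pair. Of 13757 other genes with a mean of at least 1 TPM, those closest to Pck2 were Ankrd13b (r = 0.966), Slfn10-ps (r = 0.964) and Nectin2 (r = 0.963), and those closest to Ass1 were Ntpcr (r = 0.951), H2-Ab1 (r = 0.947) and Acy3 (r = 0.944). Asns was followed most closely by Cul4a (r = 0.994), Rabggtb (r = 0.992) and Phf10 (r = 0.991), and Phgdh by Ubald1 (r = 0.965), Cyp4f16 (r = 0.961) and Dync1li1 (r = 0.958). For Atf4 they were Atp6v0e (r = 0.961), Emc7 (r = 0.951) and Lonp1 (r = 0.947), for Shmt2 Rpap3 (r = 0.941), Mrpl4 (r = 0.939) and Hint1 (r = 0.939), for Mthfd2 Eif3j1 (r = 0.953), Itpa (r = 0.949) and Hat1 (r = 0.939) and for Psat1 Tceal8 (r = 0.937), Pcbd1 (r = 0.915) and Adgrg7 (r = 0.887). The closest to Psph and Trib3 were less alike: Prelid1 (r = 0.773), Arpc3 (r = 0.752) and Mrpl43 (r = 0.731) for Psph and Gm16023 (r = 0.868), 4933407K13Rik (r = 0.862) and Akirin2 (r = 0.851) for Trib3.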

How the data were processed

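RNA of sorted CMP, GMP, MEP and LT-HSC was sequenced as paired-end reads, and the authors quantified each library against mouse transcripts with kallisto, per the methods and the processing notes. The deposited files hold, for every transcript, an estimated count, in which shared fragments are split, and a TPM value, and no libraries were pooled. Here both were summed per gene over the 114200 of 115088 transcripts that could be paired with a gene of GENCODE vM21 (99.2%). Summed estimated counts were rounded and tested with edgeR 4.0.16 in R 4.3.3 (TMM normalization, filterByExpr, quasi-likelihood F-test), with Benjamini-Hochberg adjustment over all genes tested and an FDR of 0.1. DESeq2 1.42.0 was an alternative, and the fits were tested on simulated counts. SE was taken as the size of the log2 fold change over the root of F.

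Each mouse is 1 replicate. CMP, GMP and MEP of a number come from the same mouse, and their deviations from group means correlated by 0.00 to 0.50 (median 0.28, 18 pairs), so the mouse was a block in an alternative to the contrasts between populations. The 10 genes and the lists of pathway and marker genes were chosen with earlier results of these data known. Beyond them, the text names list genes of at least 1 TPM that passed and did not overlap, up to 2 per direction, list and population. The text describes a part of these, with values in the other populations where tested for most of them, but not for Herpud1 and Sesn2. Stc2 is named for its calls alone. The text also names the 3 genes most correlated with each of the 10. Their Pearson correlations used log2(TPM + 1). Gene counts of 40804031 to 65930737 per library set the precision. With 2 mice per genotype, the LT-HSC fits resolve only large differences.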

Additional observations from a re-analysis of the deposited data

Results flagged for a closer look

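The effect of KO differed between GMP and CMP for 2 of the 10 genes by the interaction test in edgeR, where 19% of 18034 genes did. For Ass1 the log2 fold change in GMP less that in CMP was -0.75 ± 0.21 (adjusted p = 0.0298), the KO mice being lower in both. For Psph it was 0.41 ± 0.12 (adjusted p = 0.0311), where in CPM every KO mouse was above every WT mouse in GMP and the groups overlapped in CMP. The call on Ass1 was lost without mouse 304 or 309 and that on Psph without mouse 301, 305 or 308 (adjusted p = 0.113 to 0.184 over these 5 fits).

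In other pairs of populations every KO library lay above every WT library in CPM in one and below in the other. These differences were not tested. In TPM the genotypes overlapped for Phgdh and Psat1 in LT-HSC and for Psph in GMP and MEP. Phgdh was higher in KO LT-HSC and lower in KO precursors, by a log2 fold change that was 0.81 above that of CMP, 0.96 above that of GMP and 1.25 above that of MEP. Psat1 showed the same directions, with differences of 0.94 from CMP and 0.99 from GMP. For Psph the log2 fold change in MEP less that in GMP was -0.58, and that in LT-HSC less that in MEP was 0.96. When 1 LT-HSC library was left out, the log2 fold change in LT-HSC ran from 0.12 to 0.89 for Phgdh, from 0.035 to 1.02 for Psat1 and from 0.65 to 0.85 for Psph. In LT-HSC 36.3% of all genes showed no overlap between genotypes in either direction. LT-HSC came from other mice and another library kit, and in LT-HSC none of these genes passed in edgeR.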

How the results depend on the processing

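The alternatives used DESeq2, its size factors within edgeR, an offset for effective length, all genes without a filter, 1 fit of all precursors, a replicate block, and leaving out each mouse. The falls of Pck2, Ass1, Phgdh and Psat1 in KO CMP and GMP and the rise of Psph in GMP kept their direction and their call in every alternative. Over the values of the 10 genes, 727 alternatives kept direction and call, 33 lost a call, 16 gained one, 13 untested values moved by more than the spread between replicates and 9 changed sign, those 9 when a mouse was left out of a value with no call. Of the 13, 9 are log2 ratios of WT MEP to CMP read in CPM in place of TPM, and leaving out 1 mouse moved that of Ass1 to between -0.50 and -0.12. Leaving out 1 mouse gave log2 fold changes of -0.11 to 0.65 for Atf4, -1.11 to 0.67 for Asns, -0.0067 to 1.56 for Mthfd2 and -0.95 to 0.32 for Ass1 in LT-HSC, and of -0.10 to 0.048 for Shmt2 in GMP. For the interaction it gave -0.19 to 0.091 for Psat1, -0.016 to 0.21 for Shmt2 and -0.00061 to 0.22 for Pck2. Among named list genes, Glul in MEP became -0.033 with the length offset, and Pcx in GMP gave -0.030 to 0.054 when 1 mouse was left out, turning only without WT mouse 309. Leaving out 1 mouse also turned the sign of Cebpg in MEP, Fpgs in GMP and Shmt1 in GMP, with ranges -0.050 to 0.048, -0.10 to 0.030 and -0.13 to 0.012, none of them with a call. In WT mice the call on Asns between GMP and CMP was lost with size factors and DESeq2 (adjusted p = 0.125 and 0.108), that on Trib3 with DESeq2 (0.144) and that on Psph with the length offset (0.361). Between MEP and GMP, Psph lost its call with size factors, no filter and DESeq2, and Trib3 with no filter, the length offset and DESeq2.

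Over all genes, LT-HSC had 18 calls, which became 286 with no filter, 248 with DESeq2, 115 with a replicate block and 50 to 2519 without 1 mouse. Leaving out 1 mouse gave 3037 to 5357 calls in MEP (4638 with all), 2203 to 3027 for the interaction (3421) and 4725 to 7436 between GMP and CMP in WT mice (7147). WT and KO mice share no number, but they stand beside each other in the columns of the study's expression tables. Columns beside each other correlated by -0.06 to 0.50 (median 0.36, 11 pairs), so they may share only a place. A replicate block of these pairs raised the list genes called in CMP from 37 to 59 and gave calls to Asns (0.38, adjusted p = 0.0164) and Shmt2 (-0.15, adjusted p = 0.0408) in CMP and Asns in GMP (-0.24, adjusted p = 0.0418). With the mouse as replicate block the interaction of Asns was -0.61 (adjusted p = 0.0399), and no other call on the 10 genes changed. The causes of these changes were not tested.

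With 2 to 26 estimated counts, Trib3 could not be resolved in precursors, and 2 mice per genotype limit LT-HSC.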
